A study of Mus musculus with 2 samples.

Results

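A set of 10 genes of the integrated stress response and the unfolded protein response were followed through the cells of the mouse testis: 7 of the ATF4 branch (Atf4, Atf3, Ddit3, Trib3, Chac1, Sesn2 and Asns) and 3 of the endoplasmic reticulum (ER) chaperone branch (Xbp1, Hspa5 and Dnajb9). They were chosen by symbol among the 32285 genes of the count tables, and 10 of 10 were found. The cells came from the testes of 13-day-old C57BL/6 mice, an age at which the first wave of germ cells is entering meiosis, and were read with a droplet assay that counts transcripts by unique molecular identifiers (UMIs) at their 3′ end. The first library was of the conditional knockout, Psma7 F/-;Stra8-Cre KI/+, with a floxed copy and a deleted copy of Psma7 and a Cre knocked in at Stra8, a gene that is active in germ cells. The other was of the control, Psma7 F/+, titled WT, with a floxed and an intact copy and no Cre given in its label. Psma7 encodes a subunit of the outer ring of the proteasome, the complex that degrades proteins marked with ubiquitin. The deleted copy is carried by every cell of the knockout animal, somatic cells included. The number of animals behind a library is not given in the labels, so genotype, animal and preparation cannot be told apart, and no test between genotypes was possible.

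In the integrated stress response, kinases that sense ER stress, lack of amino acids or other insults phosphorylate the translation factor eIF2. Most translation then slows while the transcription factor ATF4 is made, and ATF4 turns on genes of amino acid supply, redox balance and cell death. In the unfolded protein response, sensors in the ER membrane, among them IRE1, which splices the Xbp1 transcript, and ATF6, raise the chaperones and the degradation machinery of the ER. Cells with an impaired proteasome are known to engage both arms. ATF4 and XBP1 are controlled mainly through translation and splicing, steps that a count of 3′ ends does not read.

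Both arms act through short DNA elements near the start of their target genes. The 250 bases before the RefSeq start were searched on both strands for the ER stress response element (CCAAT and CCACG set apart by 9 bases of any kind), the C/EBP-ATF response element TGATGNAAN through which ATF4 acts, and the unfolded protein response element TGACGTG. Of 32851 mouse promoters of the same length, 0.113% held the first, 3.44% the second and 1.65% the third. Among the 10 genes, Hspa5 held the first and the third, and Asns, Atf3 and Chac1 the second. The other 6 had no match in this window. The promoters of Hspa5 (chr2:34771840-34772089, + strand), Asns (chr6:7693210-7693459, - strand) and Atf3 (chr1:191183334-191183583, - strand), on GRCm38.p6 from RefSeq, are shown 5′ to 3′ because these genes stand for the different patterns described below. Capitals mark the matches, which in Hspa5 lie 157 to 151 and 65 to 47 bases before the start, in Asns 23 to 15 and, on the opposite strand, in Atf3 111 to 103.
Hspa5: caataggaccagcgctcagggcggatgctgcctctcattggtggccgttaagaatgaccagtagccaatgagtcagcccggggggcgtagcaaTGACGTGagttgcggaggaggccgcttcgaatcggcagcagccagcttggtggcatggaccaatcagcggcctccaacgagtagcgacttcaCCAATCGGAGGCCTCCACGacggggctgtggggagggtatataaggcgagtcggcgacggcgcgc
Asns: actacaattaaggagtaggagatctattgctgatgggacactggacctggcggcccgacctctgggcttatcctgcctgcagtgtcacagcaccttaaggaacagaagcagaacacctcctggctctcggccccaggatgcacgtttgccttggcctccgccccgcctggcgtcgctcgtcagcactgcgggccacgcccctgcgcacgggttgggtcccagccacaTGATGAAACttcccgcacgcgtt
Atf3: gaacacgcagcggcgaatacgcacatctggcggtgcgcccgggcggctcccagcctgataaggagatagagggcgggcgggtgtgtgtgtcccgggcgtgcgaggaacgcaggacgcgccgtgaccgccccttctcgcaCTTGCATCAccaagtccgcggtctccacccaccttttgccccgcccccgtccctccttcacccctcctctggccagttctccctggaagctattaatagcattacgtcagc
In the GENCODE M21 annotation Atf3 spans 191170296 to 191218039 on the - strand of chromosome 1. Its window thus lies inside that span, downstream of its 5′ end, and other starts of Atf3 were not searched. A match of letters is a description of these windows and not evidence of binding.

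The libraries held 112746953 UMIs in the knockout and 146528736 UMIs in the control, of which 90948607 and 115929415 were in cells. There were 10589 knockout cells with a median of 5395 UMIs and 10737 control cells with a median of 8046 UMIs, and 28 cell barcodes occurred in both libraries. Cells were grouped in clusters and named by marker genes as resembling a class. The classes with at least 50 cells in both libraries were undifferentiated spermatogonia (281 knockout, 511 control), differentiating spermatogonia (105 and 999), Sertoli cells (6536 and 3847), peritubular myoid cells (783 and 853), interstitial stromal cells (2049 and 1531), Leydig cells (385 and 316), endothelial cells (64 and 88) and macrophages (130 and 120). Germ cells led by Esx1 and Dmrtb1 that took no stage name numbered 14 in the knockout and 1074 in the control, and early meiotic germ cells numbered 0 and 1196. Of the 19 markers of undifferentiated spermatogonia and the 20 of Sertoli cells, all were at least 1.5-fold above the other cells in both libraries. For differentiating spermatogonia, 12 of 14 were so in the knockout and 8 of 14 in the control. For peritubular myoid cells it was 9 of 12 in the knockout and 10 of 12 in the control, and for Leydig cells 10 of 12 and 12 of 12. Clusters were named by these same markers, so the counts describe the classes and are no support for the names. Psma7 itself stood at 94.4 CPM in knockout and 245 in control undifferentiated spermatogonia, a log2 ratio of -1.38 (95% interval -1.53 to -1.22). It was lower in the knockout in each of the 8 classes, down to -2.48 in differentiating spermatogonia, and in Sertoli cells it was at 86.6 against 238 CPM.

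Levels are given as CPM, the UMIs of a gene per 1000000 UMIs of its class in a library, and ratios are log2 of knockout over control. A ratio is given where a gene had at least 30 UMIs over both libraries in the class. Intervals are 95% and cover counting error only, not the spread between animals. A gene was counted as higher or lower when it was at least 1.5-fold apart, without a test. A level is a share, so a lower one can come from fewer transcripts of a gene or from more of the others.

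In undifferentiated spermatogonia, the germ cells that hold the stem cells, 3 genes of the ATF4 branch and 1 chaperone gene were higher in the knockout. Atf3, a stress-induced repressor and activator of transcription, stood at 20.1 CPM in knockout cells and 6.45 in control cells, a 3.10-fold difference (log2 1.63, interval 1.12 to 2.17). Ddit3, which encodes the cell death factor CHOP, stood at 41.1 in knockout and 15.6 CPM in control cells (log2 1.39, 1.06 to 1.74). Sesn2, a stress-induced inhibitor of the growth kinase mTORC1 that p53 also controls, stood at 42.2 in knockout and 18.8 CPM in control cells (log2 1.16, 0.84 to 1.49). The knockout level was thus above the control level for all 3 genes, with intervals clear of 0. The chaperone gene was Dnajb9, which encodes an ER cofactor of BiP, at 130 in knockout and 73.7 CPM in control cells (log2 0.82, 0.65 to 0.99).

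Trib3, which encodes a pseudokinase that restrains ATF4 and CHOP, went the other way, at 5.19 CPM in knockout and 11.7 in control undifferentiated spermatogonia (log2 -1.15, -1.91 to -0.50), from 23 and 91 UMIs. Atf4 itself stood at 102 in knockout and 78.2 CPM in control cells, a ratio of 0.39 (0.21 to 0.57) that stayed under 1.5-fold. Asns, which makes asparagine, was at 7.90 in knockout and 9.81 in control cells, with an interval of -0.93 to 0.28 that spans 0. Chac1, which breaks down glutathione, had 2 UMIs in the knockout and 5 in the control, too few for a ratio. Hspa5, which encodes BiP, the main chaperone of the ER lumen, stood at 242 in knockout and 192 CPM in control cells (log2 0.34, 0.22 to 0.45). Xbp1 was at 30.7 in knockout and 22.1 in control cells (log2 0.48, 0.14 to 0.81). Both were above the control level by less than 1.5-fold.

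By branch, 3 of the 6 measured genes of the ATF4 branch were at least 1.5-fold higher and 1 lower in knockout undifferentiated spermatogonia, with a median ratio of 0.78, and of the 3 genes of the ER branch 1 was higher, with a median of 0.48. Of all 14983 genes measured in that class, 14.5% were at least 1.5-fold higher and 8.55% at least 1.5-fold lower in the knockout, and their median ratio was 0.05. The genes of the dissociation response moved with these genes: the summed level of 21 immediate-early genes was 2050 CPM in knockout and 1175 in control undifferentiated spermatogonia, and 15 of the 21 were at least 1.5-fold higher. Their part in the ratios was not tested. Among barcodes of 10 to 100 UMIs, which hold free RNA, Atf3 was at 216 CPM in the knockout and 101 in the control library, above its level in these cells. With 10% of the UMIs subtracted as free RNA, no Atf3 UMIs were left in these cells of either library. The value under that setting, 0.81, comes from the 0.5 added to each count and the UMIs of the class, and measures no Atf3. With the measured share of 2.33% in the knockout and 2.26% in the control the ratio of Atf3 was 1.85. Over the other alternatives of processing it lay between 1.26 and 1.88, while that of Ddit3 lay between 1.30 and 1.53 over all of them.

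Mitochondrial content also differed, with a median of 4.10% of UMIs in knockout and 6.82% in control undifferentiated spermatogonia. Split by that content, Ddit3 had a ratio of 1.58 in cells under 5%, 0.96 between 5 and 10% and 0.64 above 10%. Sesn2 had 0.90, 1.09 and 1.57 in the same bins, and Dnajb9 0.74, 0.80 and 0.37. The ratio of each of these 3 genes was above 0 in every bin. Above 10%, the bin of 61 knockout and 179 control cells, the intervals of Ddit3 (-0.41 to 1.60) and Dnajb9 (-0.06 to 0.77) spanned 0. That of Sesn2 was clear of 0 there (0.84 to 2.31). The ratio of Hspa5 was 0.37, 0.31 and -0.11 in the same bins, and its interval above 10% (-0.39 to 0.16) also spanned 0. Atf3 had 1.998 under 5% and 1.15 between 5 and 10%, and too few UMIs for a ratio above 10%.

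**Figure D1:**
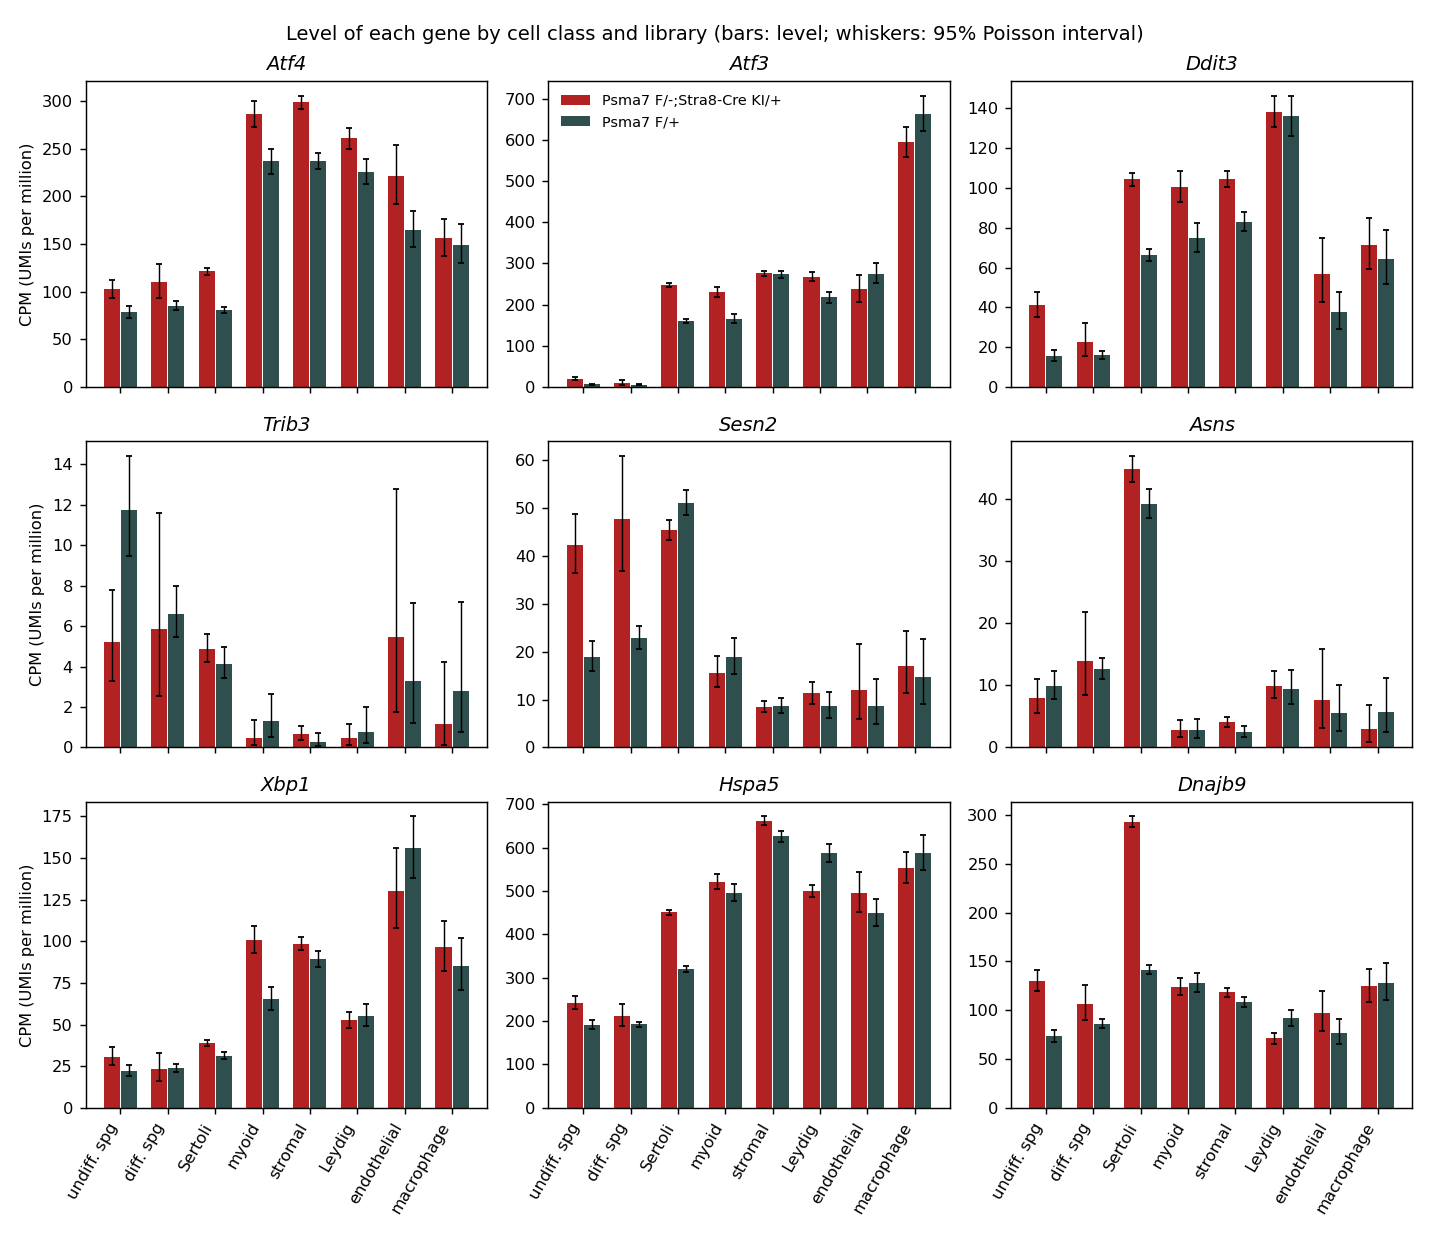
Level of 9 genes in CPM (y axis, 1 panel a gene, linear from 0) in 8 cell classes (x axis), with the knockout library left of the control in each pair; whiskers are 95% Poisson intervals. Ddit3 and Sesn2 in undifferentiated spermatogonia and Dnajb9 in Sertoli cells (293 against 142) have knockout bars well above the control bars, and Atf3 is highest in macrophages of both libraries.

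In differentiating spermatogonia, which had 105 knockout cells, 57 of them in a cluster of few UMIs, 2 genes of the ATF4 branch were past 1.5-fold. Sesn2 stood at 47.8 CPM in knockout and 22.9 in control cells (log2 1.07, 0.66 to 1.45). Atf3 stood at 10.3 in knockout and 5.04 in control cells, from 14 and 83 UMIs (log2 1.07, 0.10 to 1.86). Over the alternatives of processing its lowest ratio was 0.59, when doublets stayed in. Once 10% was taken off for free RNA, no Atf3 UMIs were left in this class of either library, so the value of 3.60 there measures no Atf3. Of 9 measured genes these 2 were higher and 0 lower, against 16.1% of 15426 genes higher and 9.95% lower in that class. Atf4 had a ratio of 0.38 (0.12 to 0.62) and Ddit3 one of 0.54, whose interval of -0.07 to 1.06 spans 0. Trib3 had -0.09 (-1.42 to 0.86), and Asns 0.18 (-0.61 to 0.83). In the ER branch, Dnajb9 had 0.31 (0.05 to 0.55), Hspa5 0.15 (-0.03 to 0.32) and Xbp1 -0.01 (-0.59 to 0.50). At a clustering resolution of 2 the ratios in this class were -0.62 for Dnajb9, -1.04 for Hspa5 and 0.68 for Xbp1, with 2 genes at least 1.5-fold lower. The immediate-early sum was again higher, at 1844 CPM in knockout and 1222 in control cells, a difference whose part was not tested. The difference between undifferentiated and differentiating spermatogonia in these ratios was not tested either.

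**Figure D2:**
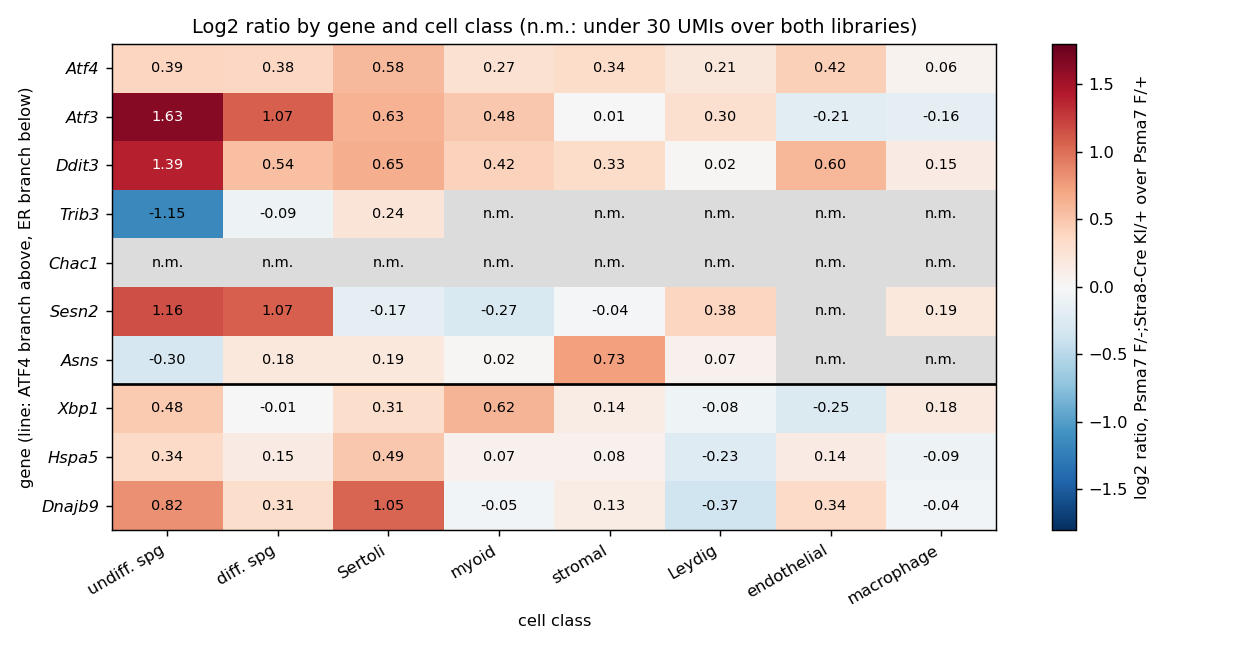
Log2 ratio of knockout over control for each of the 10 genes (rows, ATF4 branch above the line) in 8 cell classes (columns), printed in each cell; grey marks fewer than 30 UMIs over both libraries. The ratios furthest from 0 are those of Atf3, Ddit3, Sesn2 and Trib3 in undifferentiated spermatogonia, followed by Atf3 and Sesn2 in differentiating spermatogonia and Dnajb9 in Sertoli cells, and Chac1 is grey throughout.

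In the control library, the only one with at least 50 early meiotic cells, Hspa5, Asns and Dnajb9 were higher and Atf4, Atf3, Trib3 and Xbp1 lower in early meiotic germ cells than in undifferentiated spermatogonia. Of all 15316 genes measured at this step, 19.8% were at least 1.5-fold higher and 49.4% lower. Hspa5 stood at 192 CPM in undifferentiated and 192 in differentiating spermatogonia, 518 in the germ cells without a stage and 1485 in early meiotic germ cells. The last is 7.75-fold the first (log2 2.95), and of the 2 early meiotic clusters the one led by Meiob and Spo11 had 2160 and the one with Stra8 among its leading genes 988. Atf4 ran through the same classes at 78.2, 85.2, 88.4 and 39.1 CPM. Atf3 stood at 6.45, 5.04, 2.78 and 2.35, and Trib3 at 11.7, 6.63, 3.06 and 2.30. Their levels were thus lowest where that of Hspa5 was highest. Xbp1, at 22.1, 23.9, 25.4 and 8.42, was also lowest in early meiotic cells, although it belongs to the ER branch. Dnajb9 stood at 73.7, 86.2, 107 and 116 and Asns at 9.81, 12.6, 20.6 and 18.5, both higher in the later classes. Sesn2 at 18.8, 22.9, 15.9 and 20.3 and Ddit3 at 15.6, 15.9, 20.6 and 13.0 CPM showed no such course. These classes come from 1 library, and their clusters were built from the same transcripts, so the levels are a description.

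Other genes of ER folding went both ways over the same step. Of 28 other ER chaperones and folding enzymes, 11 were at least 1.5-fold higher and 4 lower in early meiotic germ cells than in undifferentiated spermatogonia of the control, with a median log2 ratio of 0.46, where that of all genes was -0.56. The highest were Sdf2l1, a partner of BiP, at 177 against 16.8 CPM, Dnajb11, a BiP cofactor, at 422 against 73.1, and the lectin chaperone Calr at 808 against 150. The lowest was the disulfide enzyme Txndc5, at 2.57 against 40.4. Of 31 genes of ER-associated degradation and translocation into the ER, 16 were higher and 0 lower, with Ssr4, a subunit of the translocon-associated complex, at 170 against 16.0. Of 35 other ATF4 targets, 2 were higher and 22 lower (median -1.01). Among these, Phgdh, the first enzyme of serine synthesis, stood at 5.03 against 71.2, and the transcription factor Cebpb at 3.72 against 47.4, whereas the leucyl-tRNA synthetase gene Lars stood at 228 against 88.0. The genes named in this comparison are the extremes of each list and were chosen after their values were seen.

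The knockout library had no class beyond differentiating spermatogonia with 50 cells, so this course could not be followed there. From undifferentiated to differentiating spermatogonia of the knockout, Hspa5 had a log2 ratio of -0.19, at 212 CPM in the later and 242 CPM in the earlier class, while in the control it stood at 192 CPM in both. Of 9 genes measured at this step in the knockout, Asns was at least 1.5-fold higher (0.84) and Atf3 (-0.92) and Ddit3 (-0.83) lower in the later class, where 13.9% of 13084 genes were higher and 18.7% lower. Asns had 19 UMIs in the later and 35 in the earlier class, and its interval of -0.07 to 1.67 spans 0. Atf3 had 14 and 89 UMIs (-1.89 to -0.14). In the control 1 gene was past 1.5-fold, Trib3 (-0.83), where 15.8% of 16475 genes were higher and 19.9% lower. Summed over all cells of a library, Hspa5 was at 514 CPM in the knockout and 569 in the control (log2 -0.15), beside ratios of 0.34 in undifferentiated spermatogonia and 0.49 in Sertoli cells. The control's sum includes 1196 early meiotic germ cells, with Hspa5 at 1485 CPM, and 1074 germ cells without a stage, at 518 CPM. The part of these classes in the ratio of the sum was not tested. In the same sum 5 of the 10 genes were at least 1.5-fold higher and 0 lower, where 20.3% of 21401 genes were higher and 26% lower. These were Atf3 (1.18), Ddit3 (1.12), Atf4 (0.83), Dnajb9 (0.76) and Xbp1 (0.74), and the share of each class in the sum differs between the libraries.

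**Figure D3:**
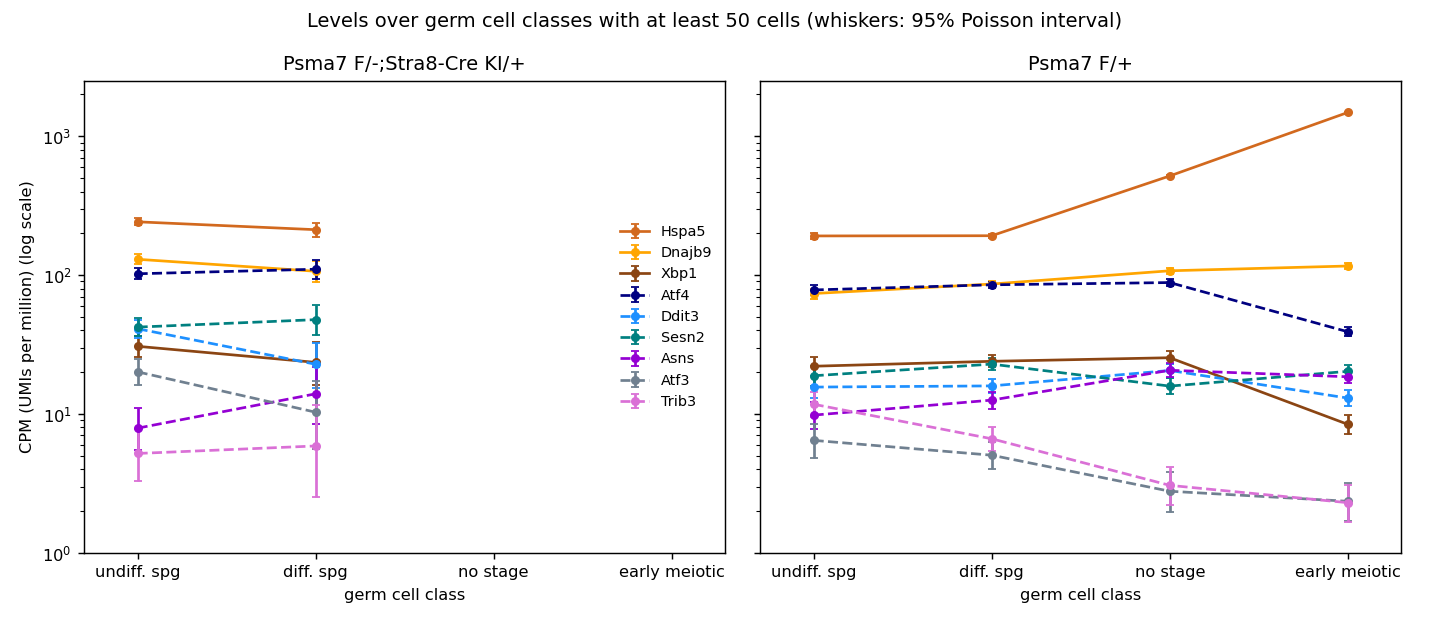
Level of 9 genes in CPM (y axis, log scale) over the germ cell classes with at least 50 cells (x axis, early to late), in the knockout library on the left and the control on the right; solid lines are the ER branch, dashed lines the ATF4 branch, and whiskers are 95% Poisson intervals. In the control, Hspa5 stands at 1485 in early meiotic cells while Atf4 is at 39.1; the knockout panel ends at differentiating spermatogonia.

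Among somatic cells, the ratio furthest from 0 was that of Dnajb9 in Sertoli cells, the cells that nurse the germ line. It stood at 293 CPM in knockout and 142 in control Sertoli cells (log2 1.05, 1.00 to 1.10). Ddit3 stood at 104 in knockout and 66.4 in control cells (0.65, 0.57 to 0.73), and Atf3 at 247 in knockout and 159 in control cells (0.63, 0.58 to 0.68). These 3 of 9 measured genes were past 1.5-fold, against 18.2% of 16865 genes higher and 8.96% lower. Atf4, at 121 in knockout and 81.0 in control cells (0.58, 0.51 to 0.65), lay just under that fold. Hspa5 stood at 450 in knockout and 321 in control cells (0.49, 0.45 to 0.53), and Xbp1 at 39.0 and 31.4 (0.31, 0.20 to 0.43). Sesn2, higher in knockout spermatogonia, stood at 45.4 in knockout and 51.1 in control Sertoli cells (-0.17, -0.27 to -0.07). Trib3 (0.24, -0.10 to 0.58) and Asns (0.19, 0.08 to 0.30) lay close to the control.

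The libraries filled different Sertoli clusters, and the ratios within clusters differed from those of the class. Most knockout Sertoli cells lay in clusters 0 (2569 knockout, 72 control cells), 1 (1895 and 132) and 5 (964 and 114), and most control cells in clusters 6, 8, 13, 14 and 15, of which clusters 6 and 15 had under 50 knockout cells. Within cluster 0, Dnajb9 stood at 479 CPM in knockout and 458 in control cells, and within cluster 1 at 377 and 380. In cluster 13 it was at 235 in knockout and 285 in control cells. Cluster 6, with 938 control cells, had 61.2. Over the 7 clusters with enough cells of both libraries, which held 93.3% of knockout and 57.4% of control Sertoli cells, the ratio of Dnajb9 lay between -0.74 and 0.19 with a median of -0.01. That of Hspa5 lay between -0.28 and 0.06 (median -0.05) and that of Xbp1 between -0.25 and 0.39 (median 0.10). Dnajb9 was above 0 in 3 of the 7, Hspa5 in 2 and Xbp1 in 5. The clusters were built from the same transcripts, so cells of like level can fall together. The ratios within clusters are therefore a description and do not settle the excess over the whole class. Atf4 had ratios above 0 in 7 of 7 clusters, from 0.04 to 0.45, but only in cluster 14 was its interval clear of 0 (0.29 to 0.60). Atf3 was above 0 in 3 of the 6 where it was measured, with its highest ratio, 0.79, in cluster 14. Ddit3 had ratios above 0 in 4 of 7 clusters, from -0.35 to 0.72 with a median of 0.04. With the pathway and stress genes left out of the clustering, the medians over 7 clusters were 0.12 for Dnajb9, -0.09 for Hspa5 and 0.21 for Atf4, but these clusters held only 25.0% of control Sertoli cells. Dnajb9 was there above 0 in 5 of 7 clusters (-0.72 to 0.62), Hspa5 in 3 (-0.71 to 0.16) and Atf4 in 5 (-0.11 to 0.43).

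**Figure D4:**
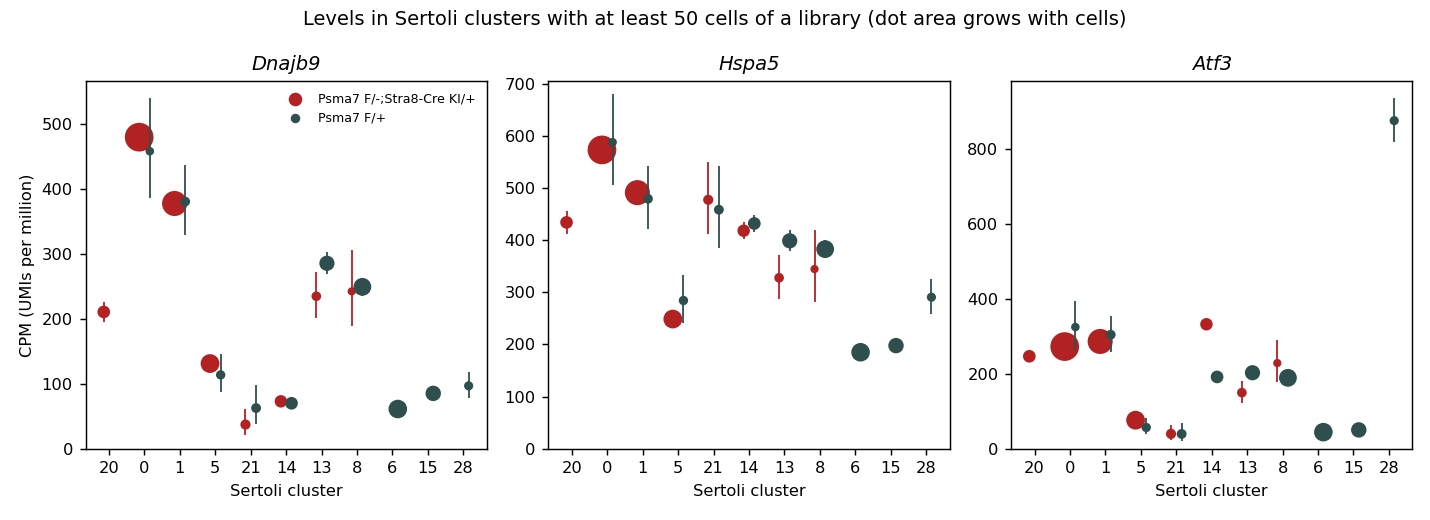
Level of Dnajb9, Hspa5 and Atf3 in CPM (y axis, linear from 0) in each Sertoli cluster with at least 50 cells of a library (x axis, cluster number), the knockout dot left of the control dot; dot area grows with the number of cells and lines are 95% Poisson intervals. The Dnajb9 dots lie close together in clusters 0 (479 and 458) and 1 (377 and 380), the knockout dot lies lower in clusters 13 (235 and 285) and 21 (37.3 and 62.6), and clusters 6 and 15, which have control dots alone, lie low.

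The immediate-early genes stood at a sum of 8168 CPM in knockout and 4367 in control Sertoli cells, with 19 of 21 at least 1.5-fold higher, and the 18 cytosolic heat shock genes at 3949 and 3039. Their part in the ratios of the class was not tested. By depth, the ratio of Dnajb9 was 0.92 in Sertoli cells of 1000 to 4000 UMIs, 1.10 in those of 4000 to 10000 and 0.50 in deeper ones, and that of Hspa5 was 0.60, 0.67 and 0.17.

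In the other somatic classes few of the 10 genes were apart. In peritubular myoid cells, the contractile layer of the tubule, Xbp1 stood at 101 CPM in knockout and 65.6 in control cells (0.62, 0.43 to 0.81), the 1 of 8 measured genes past 1.5-fold where 5.87% of 12876 genes were higher and 6.77% lower. Atf3 had a ratio of 0.48 (0.36 to 0.60) and Ddit3 one of 0.42 (0.24 to 0.61) there, beside an immediate-early sum of 27290 in knockout and 18000 in control cells, whose part was not tested. The ratio of Xbp1 was under 1.5-fold at 500 UMIs and 250 genes (0.51), at resolution 2 (0.51) and with automatic doublet thresholds (0.48). Within the 2 myoid clusters Xbp1 had 0.41 and 0.54, and Atf3 -0.02 and 0.22. Dnajb9 had -0.05 (-0.20 to 0.10) over all myoid cells. In cluster 4 it had 0.62 (0.40 to 0.83) and in cluster 16 -0.50 (-0.71 to -0.29). Ddit3 had 0.70 (0.35 to 1.06) in cluster 4 and 0.002 (-0.21 to 0.22) in cluster 16. These differences between clusters were not tested. In interstitial stromal cells Asns stood at 4.08 in knockout and 2.43 CPM in control cells, from 103 and 35 UMIs (0.73, 0.18 to 1.35), the 1 of 8 genes past 1.5-fold where 6.51% of 15256 genes were higher and 2.92% lower. Its ratio was -0.064 with doublets kept, and it was under 1.5-fold at 10% mitochondrial UMIs (0.54) and with pathway genes left out of the clustering (0.53). Once 10% was taken off for free RNA, no Asns UMIs were left in control stromal cells. The size of the value there, 5.53, is thus set by the 0.5 added to the count. Atf4 stood at 299 in knockout and 237 in control stromal cells (0.34, 0.28 to 0.39), and Atf3 at 276 and 274 (0.01, -0.05 to 0.07). The ratio of Atf4 was above 0 in each of the 5 stromal clusters, from 0.24 to 0.73. That of Atf3 was above 0 in 4 of the 5, up to 1.38 in cluster 23, and -0.44 (-0.52 to -0.36) in cluster 12. The immediate-early sum was 27137 in knockout and 22660 in control stromal cells, and its part was not tested.

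In Leydig cells, the source of testosterone, Dnajb9 and Hspa5 lay below the control level by less than 1.5-fold. Dnajb9 stood at 71.2 in knockout and 91.7 CPM in control cells (-0.37, -0.54 to -0.19), Hspa5 at 500 and 587 (-0.23, -0.30 to -0.17) and Xbp1 at 52.5 and 55.3 (-0.08, -0.29 to 0.14). None of the 8 measured genes was past 1.5-fold, where 5.91% of 13174 genes were higher and 3.68% lower. Atf4 (0.21, 0.11 to 0.31) and Atf3 (0.30, 0.19 to 0.40) were above the control, with an immediate-early sum of 19746 in knockout and 14786 in control cells, whose part was not tested. Ddit3 stood at 138 in knockout and 136 in control Leydig cells, its highest level in both libraries among the classes compared.

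In endothelial cells Ddit3 stood at 56.9 in knockout and 37.7 CPM in control cells, from 52 and 69 UMIs (0.60, 0.05 to 1.13), the 1 of 6 measured genes past 1.5-fold where 8.65% of 9322 genes were higher and 5.55% lower. Among cells of at least 2000 UMIs its ratio was -0.056. Atf4 had 0.42 (0.16 to 0.68), while Atf3 (-0.21), Xbp1 (-0.25), Hspa5 (0.14) and Dnajb9 (0.34) had intervals that span 0. Chac1 had 5 UMIs in knockout and 0 in control endothelial cells, and a count of 0 there allows a level of up to 1.64 CPM. Macrophages had the highest Atf3 of the classes, at 594 in knockout and 664 CPM in control cells (-0.16, -0.29 to -0.03). None of their 7 measured genes was past 1.5-fold, where 7.38% of 9911 genes were higher and 7.87% lower. The immediate-early sums of these classes were close between the libraries, at 18389 in knockout and 19486 in control endothelial cells and at 14653 and 14798 in macrophages.

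Across classes the 10 genes did not share an order. In both libraries Atf4 was highest in interstitial stromal cells, Atf3 in macrophages, Ddit3 in Leydig cells, Asns and Dnajb9 in Sertoli cells and Xbp1 in endothelial cells. Peritubular myoid cells had Atf4 at 286 CPM in the knockout and 237 in the control, with intervals that overlap those of stromal cells (299 and 237). Intervals of Dnajb9 also overlapped between control Sertoli cells (142), macrophages (128) and myoid cells (128). Those of Xbp1 overlapped between knockout endothelial (130) and myoid cells (101). Trib3 was highest in undifferentiated spermatogonia of the control (11.7), and in the knockout in differentiating spermatogonia (5.88), whose interval of 2.54 to 11.6 covers its level in undifferentiated ones. Sesn2 was highest in control Sertoli cells (51.1) and, in the knockout, in differentiating spermatogonia (47.8) next to Sertoli cells (45.4), with overlapping intervals. Atf3 spanned a 282-fold range over the control classes and Dnajb9 a 1.92-fold range. Over the 18 columns of class and library, which share libraries and differ in depth, the log2 levels of Atf4 and Hspa5 had a Pearson correlation of 0.16. The genes most like Atf4 among 12866 were Bag3, Tubb6 and Tmbim1 (0.96, 0.96 and 0.95), those most like Atf3 Zeb2, Ago2 and Jun (0.99, 0.98 and 0.98) and those most like Hspa5 Mpc1, Calr and Emc7 (0.96, 0.95 and 0.94).

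The other genes of the pathways were mostly level in knockout undifferentiated spermatogonia. Of 35 other ATF4 targets measured, 6 were at least 1.5-fold higher and 1 lower, with a median ratio of 0.11, where 14.5% and 8.55% of all genes were. The highest were Cth, an enzyme of cysteine synthesis, at 14.0 CPM in knockout and 5.81 in control cells, the autophagy receptor gene Sqstm1 at 282 and 126, and Jdp2 at 17.6 and 8.91. The lowest was Ddit4, another inhibitor of mTORC1, at 23.9 in knockout and 36.7 in control cells, followed by Cebpb (-0.42) and Lars (-0.41). Of 14 kinases, phosphatases and exchange factors of eIF2, 2 were higher and 0 lower: Impact, an inhibitor of the kinase GCN2, at 46.3 in knockout and 25.3 in control cells, and Ppp1r15a, which encodes the phosphatase subunit GADD34 that ends the response, at 100.5 and 59.6. The third in order was Gcn1 (0.52), and the lowest were Eif2b5 (-0.26), Eif2b3 (-0.27) and Eif2ak2 (-0.46).

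Of 9 ER stress sensors and their proteases, 3 were higher and 0 lower in knockout undifferentiated spermatogonia. These were Ern1, which encodes IRE1, at 156 in knockout and 97.3 CPM in control cells (0.68, 0.53 to 0.83), Creb3 (1.09) and Creb3l3 (1.02), the last from 21 and 18 UMIs. Atf6 stood at 64.6 in knockout and 76.4 in control cells (-0.24), with Mbtps1 (-0.11) and Creb3l2 (-0.08) next. Of the 28 other ER chaperones and folding enzymes, 1 was higher and 0 lower, with a median of 0.06: Fkbp14, at 7.45 in knockout and 4.13 in control cells, before Cdnf (0.54) and Ero1l (0.39). The lowest were Sdf2l1 (-0.43), Crebrf (-0.37) and Pdia6 (-0.26). Of 31 genes of ER-associated degradation and translocation, 3 were higher, Srp54a (0.91), Ssr4 (0.71) and Srpr (0.65), and 1 was lower, Os9 (-0.78), with Sec61b (-0.32) and Spcs2 (-0.25) above it.

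In Sertoli cells, 9 of 41 other ATF4 targets were higher and 1 lower in the knockout, with a median of 0.17, where 18.2% and 8.96% of all genes were. The counts of the lists that follow stand against the same shares. The highest were the secreted stress hormone gene Gdf15 at 3.59 in knockout and 0.82 CPM in control cells, Vegfa at 72.5 and 33.4, and the glutamine carrier gene Slc1a5 at 13.8 and 6.93. The lowest was Gpt2, an alanine aminotransferase gene, at 17.4 in knockout and 47.2 in control cells, followed by Vldlr (-0.55) and Psat1 (-0.52). Of the 14 genes around eIF2, 1 was higher, Ppp1r15a (0.72), with Ppp1r15b (0.19) and Eif2b2 (0.14) next, and 0 were lower, Eif2b3 (-0.43), Eif2ak2 (-0.35) and Eif2ak4 (-0.33) being the lowest. Of 10 sensors, 2 were higher, Creb3l1 (1.05) and Creb3l4 (0.77), then Creb3l3 (0.52), and Creb3 (-0.24), Atf6 (-0.20) and Mbtps2 (-0.19) were lowest. Of 28 chaperones, 2 were higher, the oxidase gene Ero1l (0.78) and the disulfide isomerase gene P4hb (0.74), and 2 lower, Sdf2l1 (-0.86) and Uggt1 (-0.65), with Fkbp2 (0.58) and Creld2 (-0.53) inside the fold and a median of 0.01. Of 31 degradation and translocation genes, 2 were higher, Herpud1 (1.02) and Syvn1 (0.61), and 2 lower, Derl3 (-1.12) and Sec61a1 (-0.62), with Sec61g (0.41) inside the fold. These ratios are over the whole class, whose clusters the libraries filled unequally.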

How the data were processed

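The deposited values are UMI counts per gene and barcode, unfiltered, made by the authors with Cell Ranger, version 7.1.0 per the file headers. The build was mm10 per the submitters' processing notes. Here a cell needed at least 1000 UMIs, 500 genes and at most 20% mitochondrial UMIs. Scrublet removed 275 knockout cells (2.53%) and 495 control cells (4.41%) as doublets at the control's threshold, because the automatic one marked 0% of the knockout cells. Cells were clustered with scanpy 1.11.5 (2000 variable genes, 30 components, 15 neighbours, Leiden resolution 1, leidenalg 0.10.2) and clusters were named when at least 3 class markers were at least 1.5-fold up and in at least 20% of cells, unless their leading genes spoke for another class.

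UMIs were summed per class and library. For a ratio, 0.5 was added to both counts. Exact 95% intervals are Poisson for levels and conditional binomial for ratios (scipy 1.17.1). Those for ratios were run on simulated Poisson counts, the model they assume, which cannot show a spread between cells or animals. A count of 0 was given a limit of 3 counts. With 1 library per genotype there is no test, and the precision is that of the UMIs in a class. Ddit3 was read from its main identifier, since a second one at the same locus had 0 UMIs in all cells. The genes described are the 10 members in every class of 50 or more cells per library, the 3 highest and 3 lowest of each list in undifferentiated spermatogonia and Sertoli cells, and the 3 most like Atf4, Atf3 and Hspa5 among genes with at least 20 CPM; 1 gene that this rule names is not reported here. The members and lists were chosen with earlier results of these data known. The alternatives were other limits on cells, mitochondrial share and counts, doublets kept, other clustering, other scaling and subtraction of free RNA. Where that subtraction exceeded the UMIs of a gene, its count was set to 0, and the ratio then rests on the 0.5 added.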

Additional observations from a re-analysis of the deposited data

Results flagged for a closer look

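For 4 genes the knockout ratio was above 0 in a class and below 0 in another, with both counting intervals clear of 0. Each class has 1 library per genotype, and the differences between classes were not tested. Atf3 had a log2 ratio of 1.63 in undifferentiated spermatogonia and -0.16 in macrophages, where it was 0.019 with doublets kept. Sesn2 had 1.16 in undifferentiated spermatogonia and -0.17 in Sertoli cells. Hspa5 had 0.49 in Sertoli cells and -0.23 in Leydig cells. Dnajb9 had 1.05 in Sertoli cells and -0.37 in Leydig cells.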

How the results depend on the processing

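Of 761 values of single genes under an alternative, over 64 pairs of gene and class, 721 stayed within the counting interval of the reported ratio. Of the rest, 2 were of genes past 1.5-fold whose ratio changed sign: Asns in interstitial stromal cells (-0.064 with doublets kept) and Ddit3 in endothelial cells (-0.056 at 2000 UMIs and 1000 genes). Ratios under 1.5-fold changed sign in 26 values within the counting interval and in 11 beyond it. The 11 were of Hspa5 (-1.04), Dnajb9 (-0.62) and Xbp1 (0.68) in differentiating spermatogonia at resolution 2, of Atf3 in stromal cells (3 values, down to -0.055), endothelial cells (0.45 at 500 UMIs and 250 genes, 0.22 with pathway genes out of the clustering) and macrophages (0.019 with doublets kept), and of Hspa5 in endothelial cells (-0.16 at 2000 UMIs and 1000 genes, -0.13 at 10% mitochondrial UMIs). In each of these and the following, the cause was not tested. In undifferentiated spermatogonia the median of the ATF4 branch was 0.51 with 10% free RNA subtracted. That median rests in part on the value of Atf3, which had no UMIs left in either library under this setting, so it is no measure of the branch. In differentiating spermatogonia the median of the ER branch was -0.62 and 2 genes were lower at resolution 2, and 1 gene was higher at a minimum of 100 UMIs. In Sertoli cells the median of the ER branch was 0.62 with 10% and 0.53 with the measured share of free RNA subtracted. In myoid cells the number of genes higher, Xbp1 alone as reported, was 0 at 500 UMIs and 250 genes, at resolution 2 and with automatic doublet thresholds, and 2 with doublets kept or 10% free RNA subtracted. With 10% subtracted the gene added was Asns (2.10), which had no UMIs left in control myoid cells, so that value rests on the 0.5 added. In stromal cells it was 0 at 10% mitochondrial UMIs, with doublets kept and with pathway genes out of the clustering, and the ATF4 branch median was 0.016 with doublets kept. In Leydig cells the ER branch median was -0.32 at 2000 UMIs and 1000 genes, -0.32 with automatic doublet thresholds and -0.38 without the cluster led by cell cycle genes, and 1 gene was higher with doublets kept and in the last 2 of these settings. In endothelial cells the ATF4 branch median was -0.056 at 2000 UMIs and 1000 genes and 0.043 at 10% mitochondrial UMIs, the ER branch median was -0.16 and -0.13 there, and 0 genes were higher in both, as also with ratios centred on the median gene and with 10% free RNA subtracted. The automatic doublet thresholds and the Leydig cluster left out were added after seeing the data. No paired analysis was possible because there was 1 library per genotype. Chac1 had too few UMIs for a ratio in any class.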
